A study of Saccharomyces cerevisiae with 12 samples.

Results

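The genes described are 9 genes of arginine and ornithine synthesis in Saccharomyces cerevisiae: ARG1, ARG2, ARG3, ARG4, ARG5,6, ARG7, ARG8, CPA1 and ORT1. They were found on the array by the systematic name of each open reading frame, whatever their values, and they are 9 of the 6228 genes on the array. Each has 1 probe with 2 spots, and all 9 were well above background on all 12 arrays and passed the filter on dim probes. Expression was measured on single-colour Agilent arrays, 1 per culture, with 3 cultures in each of 4 groups. Dctr1_CTR1D300 is a BY4741 strain with the CTR1 gene deleted that over-expressed CTR1 delta-300, a truncated form of this plasma membrane copper transporter. Dctr1_Con is the same deletion strain with an empty vector. WT_CTR1 is wild-type BY4741 that over-expressed full-length CTR1, and WT_Con is wild-type BY4741 with an empty vector. All 12 cultures received 0.02 mM CuCl2 and grew for 7 h at 30 °C in synthetic complete medium without leucine, from a starting OD600 of 0.6. The promoter of the constructs and the number of clones are not given in the sources used here.

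Yeast makes ornithine from glutamate inside mitochondria, through acetylated intermediates that are passed round a cycle. Ornithine is then exported to the cytosol, where it is joined to carbamoyl phosphate to give citrulline and, through argininosuccinate, arginine. Arginine represses several of the genes through the ArgR complex (Arg80, Arg81 and Arg82) together with Mcm1, while Gcn4 activates most of them when amino acids run short. CPA1 differs from the rest in that its mRNA carries an upstream open reading frame through which arginine lowers its translation and its mRNA stability.

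Values are log2 signals relative to the 75th percentile of the same array, so a value of a gene is comparable between arrays but not with that of another gene. A log2 difference of 1 is a doubling. Differences are given ± the standard error from a limma fit to all 12 arrays, with p adjusted by the Benjamini-Hochberg method over 6127 genes, and a gene was called where the adjusted p was under 0.05. Between 95.9% and 98.6% of spots per array were well above background, and no spot was saturated. The CTR1 probe averaged 4.62 ± 0.12 in WT_CTR1 and -2.51 ± 0.02 in WT_Con (SD, n = 3 each). On the 6 deletion-strain arrays this probe did not rise well above background, with or without the construct. Over-expression of the truncated form can thus not be read from it, and why it stayed dim was not tested. At that dim level it was called higher in Dctr1_CTR1D300 than in Dctr1_Con (0.96, adjusted p = 4.31e-04). Its lower-numbered spot gave 1.58 and its higher-numbered spot 0.35 (adjusted p = 0.201). LEU2, the gene whose product the medium without leucine calls for, read -0.80, -1.43 and -0.14 in Dctr1_CTR1D300, against 5.80, 5.46 and 5.50 in Dctr1_Con. It read 4.49, 4.14 and 4.43 in WT_CTR1, against 5.99, 5.69 and 5.88 in WT_Con. LEU2 thus read lower with both constructs, but by unlike amounts. The log2 difference was -6.38 in Dctr1_CTR1D300 over Dctr1_Con and -1.50 in WT_CTR1 over WT_Con. The part of LEU2 in the results below was not tested. All over-expressing arrays lay in the second column of their slides and all empty-vector arrays in the first, so slide column and construct cannot be told apart in a comparison of a construct with its vector. As the spots of 1 probe could differ by column, each call was repeated with either spot alone.

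All 9 genes rose in Dctr1_CTR1D300 relative to Dctr1_Con. The rises ran from 1.65-fold for ARG8 to 3.60-fold for ORT1, and 7 of 9 were at least 2-fold. Of all tested genes 24.1% rose and 30.6% fell. The median log2 difference was 1.45 over the 9 genes and -0.05 over all tested genes. It was 1.30 within slide 1 and 1.46 within slide 3, with all 9 genes higher in both. Since whole cultures were measured, more cells with a transcript and more of it per cell cannot be told apart. In none of the 9 did the highest Dctr1_Con array reach the lowest Dctr1_CTR1D300 array, a separation upward that 28% of all tested genes showed. With each spot taken alone 8 of the 9 were still called higher, against 16.2% of all tested genes, and the exception was ARG8. Rises of at least 2-fold that passed the test were seen in 3.43% of all tested genes.

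**Figure D1:**
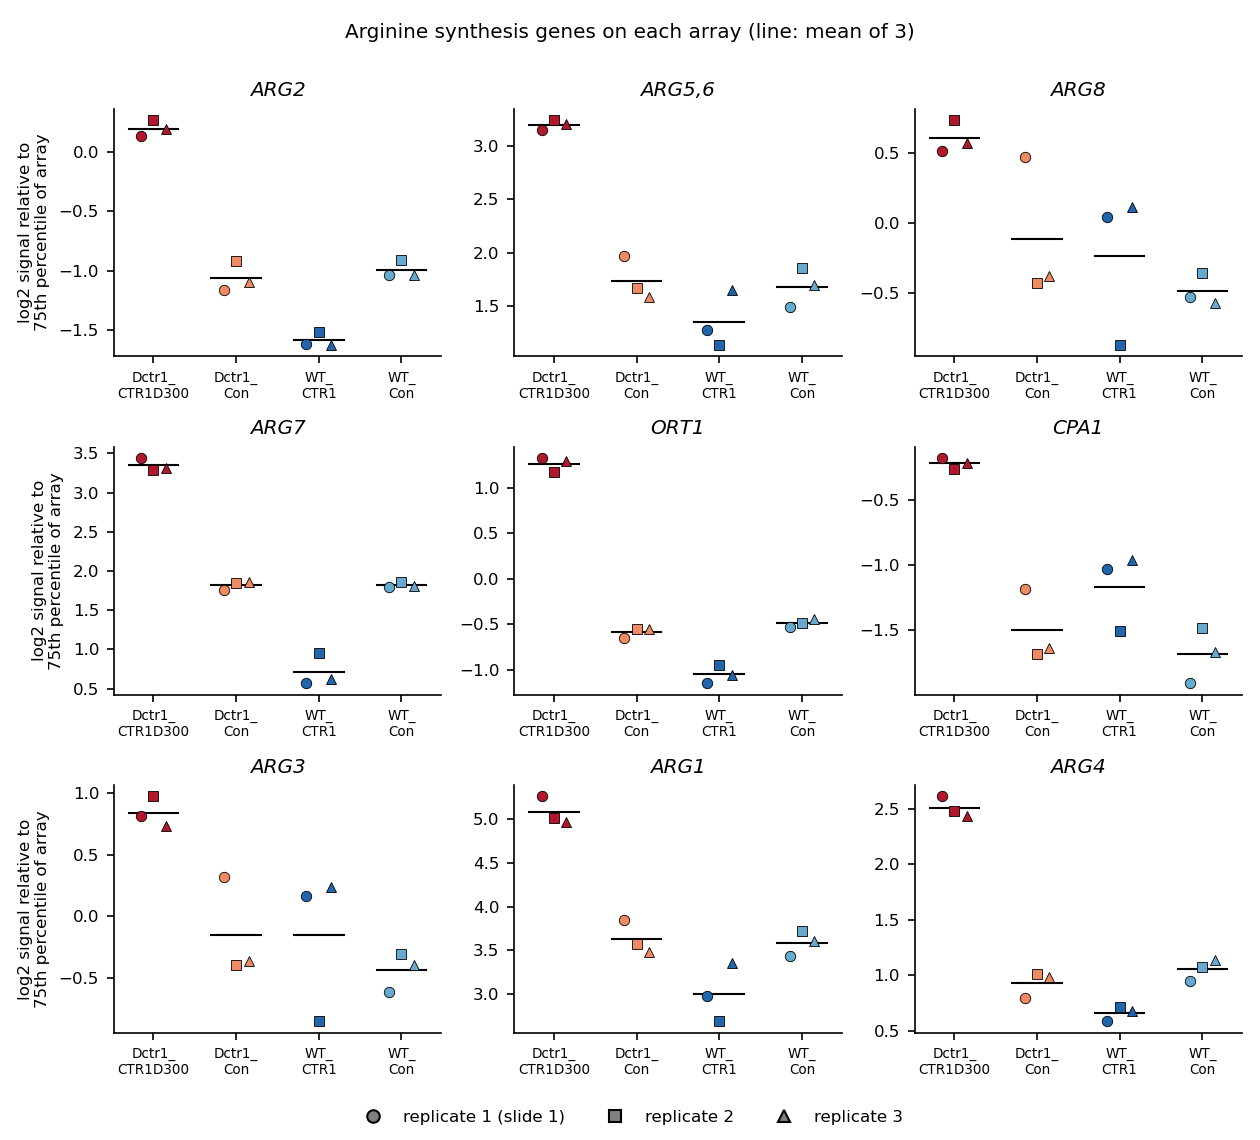
Log2 signal relative to the array's 75th percentile (y axis) of each of the 9 arginine and ornithine genes, 1 panel per gene, in the 4 groups (x axis). Each symbol is 1 array, its shape gives the replicate number, and the horizontal line is the mean of the group (n = 3). The 3 Dctr1_CTR1D300 points lie above every other point in every panel. In the ARG3, ARG8 and CPA1 panels the Dctr1_Con and WT_CTR1 points are spread widest.

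Among the mitochondrial steps, ARG2, the acetylglutamate synthase that opens the pathway, read 0.13, 0.27 and 0.19 in Dctr1_CTR1D300, against -1.17, -0.92 and -1.09 in Dctr1_Con. The Dctr1_CTR1D300 arrays were all above 0 and the Dctr1_Con arrays all below it, a rise of 1.26 ± 0.08 on the log2 scale (2.39-fold, adjusted p = 4.95e-07). ARG5,6 encodes one precursor that is cleaved into the next pair of enzymes, acetylglutamate kinase and acetylglutamyl-phosphate reductase. It read 3.15, 3.25 and 3.21 in Dctr1_CTR1D300, against 1.97, 1.66 and 1.58 in Dctr1_Con, a rise of 1.47 ± 0.14 (2.77-fold, adjusted p = 1.23e-05). The Dctr1_CTR1D300 arrays lay close together, while replicate 1 of Dctr1_Con stood above its partners.

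ARG8, the acetylornithine aminotransferase, rose least of the 9. It read 0.51, 0.73 and 0.57 in Dctr1_CTR1D300, against 0.47, -0.43 and -0.38 in Dctr1_Con. Replicate 1 of Dctr1_Con came within 0.05 of the replicate 1 array of Dctr1_CTR1D300, and the rise was 0.72 ± 0.27 (adjusted p = 0.0435). With the higher-numbered spot alone the difference was 0.50 and was not called (adjusted p = 0.144). The call was also lost in 5 of the 6 fits that left out 1 array of either group, with an adjusted p of up to 0.139, whereas leaving out replicate 1 of Dctr1_Con gave 1.01 (adjusted p = 0.00696).

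ARG7, the ornithine acetyltransferase that releases ornithine and recycles the acetyl group, read 3.44, 3.29 and 3.32 in Dctr1_CTR1D300, against 1.75, 1.85 and 1.86 in Dctr1_Con. All 3 arrays of the deletion strain with the construct stood well clear of the vector arrays, and the rise was 1.53 ± 0.09 (2.89-fold, adjusted p = 5.20e-07). ORT1, the carrier that moves ornithine out of mitochondria, had the largest rise of the 9. It read 1.33, 1.17 and 1.29 in Dctr1_CTR1D300, against -0.64, -0.55 and -0.55 in Dctr1_Con, a rise of 1.85 ± 0.07 (adjusted p = 1.69e-08). Among the 6127 tested genes its rank from the top was 31. The lower-numbered spot of ORT1 gave 1.66 and the higher-numbered spot 2.04, both called.

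The cytosolic steps rose by similar amounts. CPA1, the small subunit of the arginine-specific carbamoyl phosphate synthetase, read -0.18, -0.26 and -0.21 in Dctr1_CTR1D300, against -1.18, -1.68 and -1.64 in Dctr1_Con. Its rise was 1.29 ± 0.17 (2.44-fold, adjusted p = 1.00e-04). The lower-numbered spot of CPA1 gave 1.58 and the higher-numbered spot 0.99, both called. ARG3, the ornithine carbamoyltransferase that makes citrulline, read 0.82, 0.97 and 0.74 in Dctr1_CTR1D300, against 0.32, -0.39 and -0.37 in Dctr1_Con. Its replicate 1 in Dctr1_Con was again the highest of its group, and the rise was 0.99 ± 0.27 (1.98-fold, adjusted p = 0.00992).

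ARG1, the argininosuccinate synthetase, read 5.26, 5.02 and 4.96 in Dctr1_CTR1D300, against 3.85, 3.57 and 3.48 in Dctr1_Con, a rise of 1.45 ± 0.16 (2.72-fold, adjusted p = 3.13e-05). ARG4, the argininosuccinate lyase that releases arginine, read 2.61, 2.48 and 2.44 in Dctr1_CTR1D300, against 0.79, 1.01 and 0.98 in Dctr1_Con. This was a rise of 1.58 ± 0.08 (2.99-fold, adjusted p = 1.43e-07). The lower-numbered spot of ARG4 gave 1.18 and the higher-numbered spot 1.98, both called. The SE, from the mean of both spots, does not hold this gap. The median log2 difference was 1.47 over the 5 mitochondrial genes and 1.37 over the 4 cytosolic ones. It was 1.22 over the 4 genes known to be repressed through ArgR and Mcm1 (ARG1, ARG3, ARG5,6 and ARG8) and 1.53 over the other 5.

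**Figure D2:**
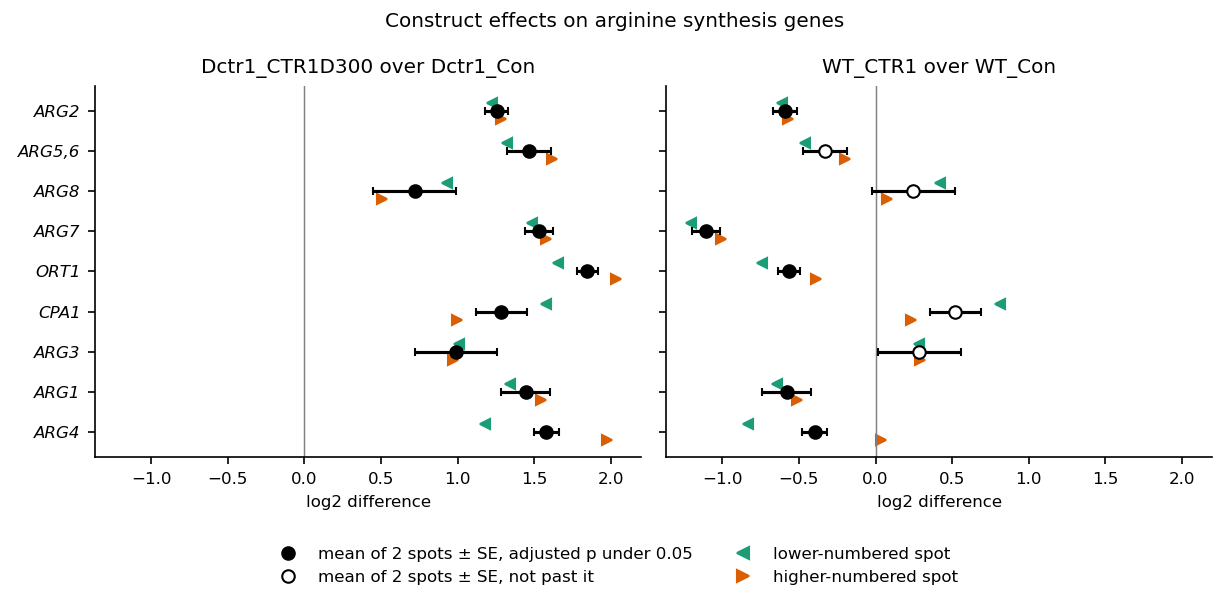
Log2 difference (x axis) of each gene (y axis) for Dctr1_CTR1D300 over Dctr1_Con on the left and for WT_CTR1 over WT_Con on the right. Circles are estimates from the limma fit ± SE, filled where the adjusted p was under 0.05, triangles are the estimates from each spot alone, and the vertical line marks no difference. All 9 circles lie right of the line on the left-hand side, whereas on the right-hand side 6 lie left of it and ARG3, ARG8 and CPA1 lie right of it.

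Full-length CTR1 in wild type gave another pattern. In WT_CTR1 relative to WT_Con, 5 of the 9 genes fell (ARG1, ARG2, ARG4, ARG7 and ORT1), none rose and 4 were not called. Of all tested genes 5.83% fell and 8.19% rose, or 11.6% and 16.2% with the replicate number as a block, under which 5 of the 9 still fell and none rose. The median log2 difference was -0.40 over the 9 genes and 0.03 over all tested genes, and over the 9 genes it was -0.37 within slide 1 and -0.41 within slide 2. With each spot alone only ARG2, ARG7 and ORT1 were called lower, 3 of 9 against 3.31% of all tested genes. The groups did not overlap for the 5 genes called, a separation downward that 12.9% of all tested genes showed.

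ARG7 fell most. It read 0.57, 0.95 and 0.62 in WT_CTR1, against 1.80, 1.86 and 1.80 in WT_Con, a difference of -1.11 ± 0.09 (2.15-fold lower, adjusted p = 9.71e-05). It was the only one of the 9 to fall at least 2-fold, a size of called fall that 0.637% of all tested genes reached. Its 3 WT_CTR1 arrays lay below every array of the other groups, as did those of ARG1, ARG2, ARG4 and ORT1.

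ARG2 read -1.62, -1.52 and -1.63 in WT_CTR1, against -1.04, -0.91 and -1.03 in WT_Con. The difference was -0.59 ± 0.08 (adjusted p = 8.00e-04), and the arrays of each group lay close together. ORT1 read -1.15, -0.95 and -1.05 in WT_CTR1, against -0.52, -0.49 and -0.44 in WT_Con. The difference was -0.57 ± 0.07 (adjusted p = 5.29e-04), again with no overlap.

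ARG1 and ARG4 were called lower on less even evidence. ARG1 read 2.98, 2.69 and 3.35 in WT_CTR1, against 3.43, 3.72 and 3.61 in WT_Con. Replicate 3 of WT_CTR1 lay just below the lowest WT_Con array, and the difference was -0.58 ± 0.16 (adjusted p = 0.0356). Leaving out 1 array at a time gave adjusted p of 0.0130 to 0.120, with the call lost without replicate 2 or 3 of WT_Con or replicate 1 or 2 of WT_CTR1. ARG4 read 0.58, 0.71 and 0.67 in WT_CTR1, against 0.95, 1.08 and 1.13 in WT_Con, a difference of -0.40 ± 0.08 (adjusted p = 0.00843). Its spots disagreed: the lower-numbered spot gave -0.83 (adjusted p = 1.82e-05) and the higher-numbered spot 0.04 (adjusted p = 0.844). The lower-numbered spot of ARG4 read 0.93 above the other on empty-vector arrays and 0.09 above it on over-expressing arrays, a larger change in gap than for all but 3.49% of tested genes.

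The 4 remaining genes were not called in wild type. ARG5,6 read 1.27, 1.13 and 1.65 in WT_CTR1, against 1.49, 1.86 and 1.69 in WT_Con, a difference of -0.33 (95% interval -0.65 to -0.01, adjusted p = 0.162), and its lower-numbered spot alone gave -0.46 (adjusted p = 0.0442). ARG3 read 0.16, -0.85 and 0.24 in WT_CTR1, against -0.61, -0.31 and -0.39 in WT_Con, a difference of 0.29 (95% interval -0.31 to 0.88, adjusted p = 0.535). ARG8 read 0.04, -0.87 and 0.11 in WT_CTR1, against -0.53, -0.36 and -0.57 in WT_Con, a difference of 0.25 (95% interval -0.35 to 0.85, adjusted p = 0.601). In both ARG3 and ARG8 replicate 2 of WT_CTR1 lay below every WT_Con array and the other WT_CTR1 arrays lay above every one, so the intervals hold both a rise and a fall. Without replicate 2 of WT_CTR1, ARG3 was 0.64 higher (adjusted p = 0.0432).

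CPA1 had the opposite sign to most of the pathway in wild type without being called. It read -1.03, -1.50 and -0.96 in WT_CTR1, against -1.91, -1.48 and -1.67 in WT_Con, a difference of 0.52 ± 0.17 (95% interval 0.15 to 0.89, adjusted p = 0.0649). Its lower-numbered spot alone gave 0.81 (adjusted p = 0.00622) and its higher-numbered spot 0.23 (adjusted p = 0.392). The estimate without replicate 2 of WT_CTR1 was 0.69 (adjusted p = 0.0132).

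**Figure D3:**
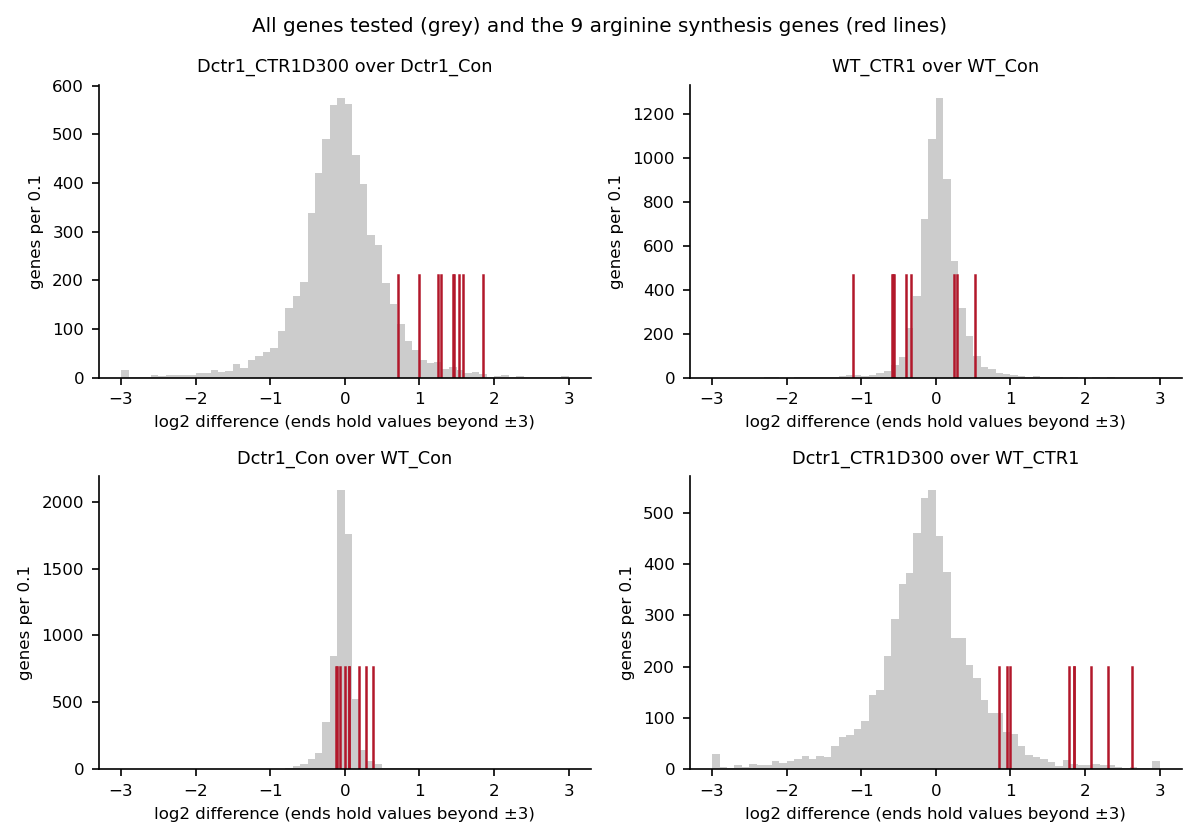
Number of genes (y axis) by log2 difference (x axis) over all 6127 tested genes in grey, 1 panel for each of 4 comparisons, with a red line at each of the 9 arginine and ornithine genes. The end bins hold values beyond ±3. The marked genes lie to the right of the bulk in Dctr1_CTR1D300 over Dctr1_Con (median 1.45 against -0.05), mostly to its left in WT_CTR1 over WT_Con (median -0.40 against 0.03), and within or beside it in Dctr1_Con over WT_Con (median 0.05 against -0.02).

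The deletion itself, with empty vectors in both strains, gave no called difference in the 9 genes. In limma's fit of Dctr1_Con against WT_Con, 0 of 9 were called higher or lower. An unadjusted p under 0.05 was seen in 0 of 9, but its share of all tested genes was not counted. The call rate was also low over all tested genes, of which 0.326% rose and 0.163% fell. With the replicate number as a block, 0 of 9 were called, against 0.588% of all tested genes higher and 0.963% lower. The estimates ran from -0.12 (ARG4, 95% interval -0.30 to 0.05) to 0.37 (ARG8, 95% interval -0.23 to 0.97). ARG7 was closest to no difference, with 1.75, 1.85 and 1.86 in Dctr1_Con against 1.80, 1.86 and 1.80 in WT_Con and a 95% interval of -0.21 to 0.20. On slide 1, the one slide that held both strains, the 9 genes had a median difference of 0.41, from -0.16 to 1.00, with 1 array of each group. Slides 2 and 3 held 1 strain each.

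Dctr1_CTR1D300 was then compared with WT_CTR1, from which it differs in both strain and construct. All 9 genes were higher in Dctr1_CTR1D300 than in WT_CTR1, where 24.5% of all tested genes were higher and 38.5% lower. On slide 1, which alone held both groups, their median difference was 1.88 with 1 array of each. Quantile normalisation moved the median over all genes in this comparison to 0.00 from -0.11, and 50.5% of its calls were higher against 38.9% as reported here. ARG7 differed most, by 2.64 ± 0.09 (6.21-fold, adjusted p = 8.43e-09), and ORT1 by 2.31 ± 0.07 (4.97-fold, adjusted p = 3.67e-09). ARG8 differed least, by 0.84 ± 0.27 (1.79-fold, adjusted p = 0.0188), and its call was lost without replicate 2 of WT_CTR1 (0.53, adjusted p = 0.0610) or replicate 2 of Dctr1_CTR1D300 (0.78, adjusted p = 0.0579). All 9 were called higher with each spot alone, against 22.3% of all tested genes.

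Whether the construct effects differ was tested directly, as the difference in Dctr1_CTR1D300 over Dctr1_Con minus that in WT_CTR1 over WT_Con. This difference was positive and called for 7 of the 9 genes, against 19.2% of all tested genes called in that direction and 27.6% in the other. It was 2.64 ± 0.13 for ARG7 (adjusted p = 2.49e-07), the gene with the largest fall in wild type, and 2.41 ± 0.10 for ORT1 (adjusted p = 7.89e-08). The other genes called were ARG1 (2.03 ± 0.23), ARG4 (1.98 ± 0.11), ARG2 (1.85 ± 0.11), ARG5,6 (1.80 ± 0.20) and CPA1 (0.76 ± 0.24). All 7 were called with each spot alone, ARG4 included, against 16.2% of all tested genes.

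The call for CPA1 was the weakest of these (adjusted p = 0.0230) and was lost without replicate 2 of WT_Con (adjusted p = 0.0569) or replicate 3 of Dctr1_Con (adjusted p = 0.0542). For ARG3 the difference between the construct effects was 0.70 (95% interval -0.14 to 1.54, adjusted p = 0.152), and for ARG8 it was 0.47 (95% interval -0.38 to 1.32, adjusted p = 0.335). These intervals reach from a small difference of the other sign to one larger than a doubling, so neither likeness nor difference of the effects was shown for the pair.

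The 9 genes differed in how far replicate cultures of a group lay apart. The SD within groups was 0.38 for both ARG3 and ARG8, higher than in 96.2% and 96.3% of all tested genes. It was 0.22 for ARG1 and 0.19 for ARG5,6, higher than in 82.7% and 77.1%. These are the 4 genes repressed through ArgR and Mcm1. CPA1, which is outside that set, had an SD of 0.23, above those of ARG1 and ARG5,6 and higher than in 84.9% of all tested genes. The SD was 0.07 to 0.12 for ARG2, ARG4, ARG7 and ORT1, against a median of 0.12 over all tested genes. Whether the spread is tied to a regulator was not tested.

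On some arrays the 4 ArgR-repressed genes deviated from their group means in the same direction. Replicate 1 of Dctr1_Con was above its group mean in all 4, by 0.37 on average, with a range of 0.21 to 0.58. Replicate 2 of WT_CTR1 was below its group mean in all 4, by -0.47 on average, and replicate 3 of WT_CTR1 above it in all 4, by 0.35. CPA1, added to these genes after its values were seen, moved with them and left the averages at 0.36, -0.44 and 0.32. On the same arrays ARG2, ARG4, ARG7 and ORT1 averaged -0.09, 0.12 and -0.03. These 4 genes were also all below on replicate 1 of Dctr1_Con (-0.14 to -0.06) and all above on replicate 2 of WT_CTR1 (0.06 to 0.24). A shared direction was thus not particular to the ArgR-repressed genes, and its rate over all tested genes was not counted. In WT_Con the ArgR-repressed genes were all below on replicate 1 (-0.19 to -0.05) and all above on replicate 2 (0.13 to 0.18). In Dctr1_CTR1D300 the 4 ArgR-repressed genes stayed within -0.11 and 0.18 of their group means. On replicate 1 of WT_CTR1 they split, with ARG3 (0.31) and ARG8 (0.28) above and ARG1 (-0.03) and ARG5,6 (-0.08) below. These deviations are a description of single arrays, and no test was made of them.

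**Figure D4:**
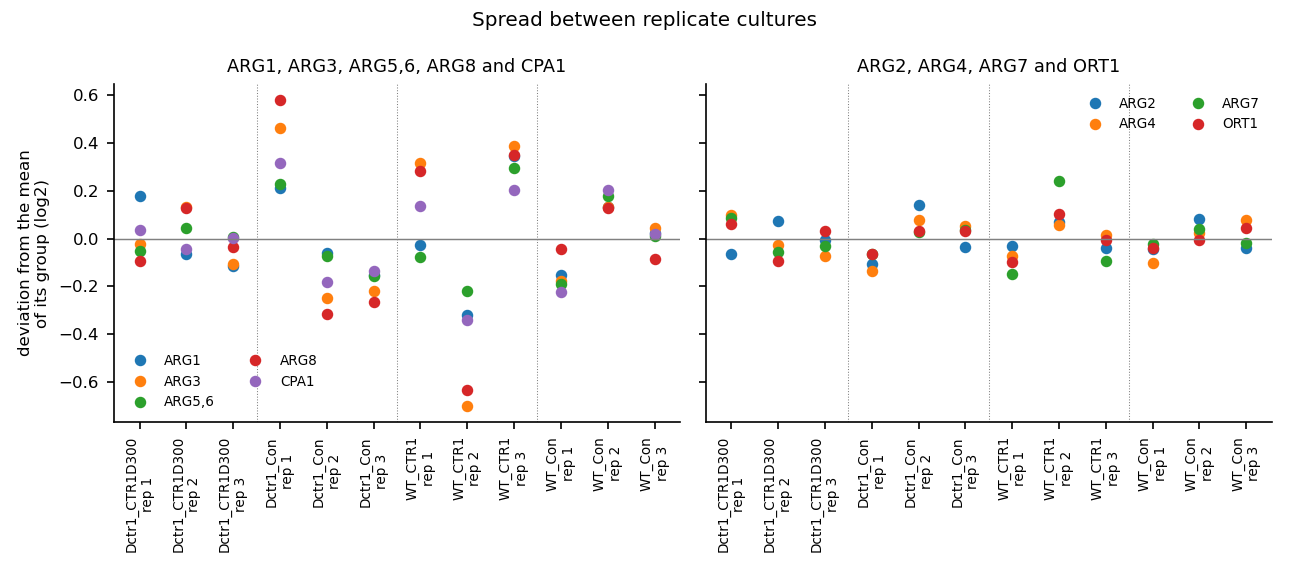
Deviation of each array from the mean of its group (y axis, log2) for each replicate of the 4 groups (x axis), for ARG1, ARG3, ARG5,6, ARG8 and CPA1 on the left and for ARG2, ARG4, ARG7 and ORT1 on the right. On the left, the 5 points of Dctr1_Con replicate 1 and of WT_CTR1 replicate 3 lie above 0 and those of WT_CTR1 replicate 2 below it. On the right the points lie nearer to 0.

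Over the 12 arrays, each gene was set against the mean of the other 8 as a description. Pearson's r was highest for ARG5,6 (0.995) and ARG1 (0.982), and lowest for CPA1 (0.832), ARG3 (0.829) and ARG8 (0.777). The 12 arrays share 4 groups, and the high Dctr1_CTR1D300 arrays carry much of every such value. The genes outside the 9 most like their mean were YPL264C (r = 0.989), YCK2 (0.987), COS9 (0.986), PYC1 (0.986) and MAC1 (0.986). YCK2 encodes a plasma membrane casein kinase, PYC1 a pyruvate carboxylase and MAC1 the activator of copper uptake genes, while COS9 belongs to a family of near-identical copies and its signal is uncertain as that of a single gene. Their log2 differences in Dctr1_CTR1D300 over Dctr1_Con ran from 0.43 for MAC1 to 1.13 for YPL264C, and in WT_CTR1 over WT_Con from -0.23 for YPL264C to -0.09 for MAC1.

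Around the pathway, 24 other genes of carbamoyl phosphate supply, regulation, breakdown, transport and polyamine synthesis were examined. In Dctr1_CTR1D300 over Dctr1_Con, 10 rose, 7 fell and 7 were not called, where 24.1% of all tested genes rose and 30.6% fell. With each spot alone 7 rose and 7 fell, against 16.2% and 22.2% of all tested genes. With the replicate number as a block 11 rose and 8 fell, against 29.4% and 37.1%. The share of the 24 genes that fell was thus close to that of all tested genes. In WT_CTR1 over WT_Con, 2 rose and 2 fell, where 8.19% of all tested genes rose and 5.83% fell. With the replicate block 3 rose and 7 fell there, against 16.2% and 11.6%. In Dctr1_Con over WT_Con 0 of 24 were called, with or without that block. Of all tested genes 0.326% rose and 0.163% fell there without it, and 0.588% and 0.963% with it.

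URA2, the enzyme that makes carbamoyl phosphate for pyrimidines, read 1.91, 1.99 and 2.20 in Dctr1_CTR1D300, against 1.06, 1.21 and 1.29 in Dctr1_Con. It rose by 0.85 ± 0.11 (1.80-fold, adjusted p = 8.81e-05) and was not called in wild type (-0.11, adjusted p = 0.544). Of the 5 regulators, ARG80, a subunit of the ArgR complex, read -0.43, -0.63 and -0.56 in Dctr1_CTR1D300, against -1.42, -1.51 and -1.42 in Dctr1_Con. This was a rise of 0.91 ± 0.09 (adjusted p = 1.26e-05) that held with each spot alone. ARG80 was -0.33 ± 0.09 in WT_CTR1 over WT_Con (adjusted p = 0.0317), a call lost with the higher-numbered spot (adjusted p = 0.183) and without any 1 array of WT_Con or replicate 3 of WT_CTR1. It was also lost with normexp background correction (adjusted p = 0.0801), without slide 1 (adjusted p = 0.0974) and with only the groups compared (adjusted p = 0.0882).

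ARG81, the arginine-sensing subunit, rose by 0.52 ± 0.13 (adjusted p = 0.00716) in Dctr1_CTR1D300, but its lower-numbered spot gave 0.21 (adjusted p = 0.210). ARG82, an inositol polyphosphate kinase (-0.20, adjusted p = 0.402), and MCM1 (0.21, adjusted p = 0.150) were not called there, although the higher-numbered spot of MCM1 alone gave 0.36 (adjusted p = 0.0414) and the lower-numbered one 0.06 (adjusted p = 0.656). GCN4, the general activator of amino acid synthesis, read 2.99, 2.96 and 1.94 in Dctr1_CTR1D300, against 2.66, 2.64 and 2.22 in Dctr1_Con. Replicate 3 of Dctr1_CTR1D300 lay below every Dctr1_Con array and the others above, and the difference was 0.12 (95% interval -0.40 to 0.65, adjusted p = 0.684). Its spots had opposite signs, at 0.55 for the lower-numbered one (adjusted p = 0.0115) and -0.30 for the higher-numbered one (adjusted p = 0.464). Its mRNA level does not report the protein, which is controlled mainly in translation.

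Among 6 breakdown genes, CAR1, the arginase that turns arginine back into ornithine and urea, rose with the synthesis genes. It read 0.53, 0.25 and 0.06 in Dctr1_CTR1D300, against -0.85, -0.46 and -0.56 in Dctr1_Con, a rise of 0.90 ± 0.14 (1.87-fold, adjusted p = 2.91e-04). In WT_CTR1 over WT_Con its estimate was -0.37 (adjusted p = 0.104), called with the lower-numbered spot alone (adjusted p = 0.0309). Of the later steps, PUT1, PUT2 and DUR1,2 had the other sign, while CAR2 and PRO3, given below, did not. In Dctr1_CTR1D300, PUT1, the proline oxidase, fell by 0.49 and PUT2, the pyrroline-carboxylate dehydrogenase, by 0.70. DUR1,2, the urea amidolyase, fell by 0.73 (largest adjusted p of the 3, 0.00908). With normexp background correction the fall of PUT1 was -0.26 and no longer called (adjusted p = 0.0865), and with quantile normalisation it was -0.29. PUT1 (0.49, adjusted p = 0.0296) and DUR1,2 (0.32, adjusted p = 0.0253) rose in WT_CTR1, the call for DUR1,2 being lost with the lower-numbered spot (adjusted p = 0.0592). PUT1 lost that call with normexp (0.32, adjusted p = 0.124) and without replicate 1 or 2 of WT_Con or replicate 2 or 3 of WT_CTR1, and DUR1,2 without any 1 array of WT_Con or replicate 1 or 3 of WT_CTR1. DUR1,2 also lost it without slide 1 (adjusted p = 0.0504). CAR2, the ornithine transaminase, was 0.25 in Dctr1_CTR1D300 (adjusted p = 0.213) and called only with the replicate block (adjusted p = 0.0258). PRO3, the last enzyme from ornithine to proline, was 0.03 (adjusted p = 0.773), with spots of opposite sign at -0.39 and 0.45.

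The 7 transporters split. CAN1, the arginine permease of the plasma membrane, read 0.65, 0.68 and 0.86 in Dctr1_CTR1D300, against -0.05, 0.11 and 0.12 in Dctr1_Con, a rise of 0.67 ± 0.09 (1.59-fold, adjusted p = 1.39e-04). ALP1, a related arginine permease, read -5.02, -5.46 and -5.35 in Dctr1_CTR1D300, against -3.69, -3.76 and -3.65 in Dctr1_Con, a fall of -1.58 ± 0.10 (3.00-fold lower, adjusted p = 5.32e-07). The fall of ALP1 was -1.35 with quantile normalisation and -1.30 with normexp background correction, both called. CAN1 and ALP1, permeases of the same amino acid, moved in opposite directions with no overlap between groups. GAP1, the general amino acid permease, read -1.09, -0.94 and -1.06 in Dctr1_CTR1D300, against 0.26, 0.42 and 0.26 in Dctr1_Con, a fall of -1.34 ± 0.14 (2.53-fold lower, adjusted p = 1.86e-05). None of these 3 permeases was called in WT_CTR1 over WT_Con without the replicate block, where only 5.83% of all tested genes fell and 8.19% rose. With that block CAN1 fell (-0.20, adjusted p = 0.0432), as did 11.6% of all tested genes.

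The vacuolar family of basic amino acid exporters also divided. YPQ1 rose by 0.86 ± 0.17 (adjusted p = 0.00171) in Dctr1_CTR1D300, YPQ2 was not called (-0.12, adjusted p = 0.351), and RTC2 fell by 0.36 (adjusted p = 0.00364). RTC2 had its larger fall in wild type: it read -1.11, -0.92 and -0.97 in WT_CTR1, against -0.16, -0.24 and -0.06 in WT_Con, a difference of -0.85 ± 0.08 (1.80-fold lower, adjusted p = 1.78e-04). AGC1, the mitochondrial aspartate and glutamate carrier, fell by 0.62 in Dctr1_CTR1D300 (adjusted p = 4.54e-05).

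Ornithine is also the substrate of polyamine synthesis. SPE1, ornithine decarboxylase, read 0.84, 0.59 and 0.69 in Dctr1_CTR1D300, against -0.19, -0.22 and -0.23 in Dctr1_Con, a rise of 0.92 ± 0.08 (1.89-fold, adjusted p = 6.39e-06). OAZ1, the antizyme that directs this enzyme to degradation, rose too, by 0.78 ± 0.16 (adjusted p = 0.00219). SPE2 (0.27) and SPE4 (0.29), which act later toward spermidine and spermine, were called higher with the mean of both spots but not with the lower-numbered spot alone (adjusted p = 0.170 and 0.111). SPE2 also lost its call when 1 of several single arrays was left out (replicate 2 or 3 of Dctr1_Con, replicate 1 or 3 of Dctr1_CTR1D300), and SPE4 without replicate 1 of Dctr1_Con or replicate 2 of Dctr1_CTR1D300. Without slide 1 neither SPE2 (adjusted p = 0.0859) nor SPE4 (adjusted p = 0.0760) was called. SPE2 lost its call with only the groups compared (adjusted p = 0.0814), and SPE4 with normexp background correction (adjusted p = 0.0800). SPE3, spermidine synthase, was -0.18 (adjusted p = 0.0663) and was called lower with the replicate block (adjusted p = 0.0207). In WT_CTR1 over WT_Con 0 of these 5 were called in limma's fit, where 5.83% of all tested genes fell and 8.19% rose. An unadjusted p under 0.05 was seen in 3 of 5, but its share of all tested genes was not counted. With the replicate block SPE1 (-0.22), SPE2 (-0.32) and SPE3 (-0.18) were called lower, against 11.6% of all tested genes.

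**Figure D5:**
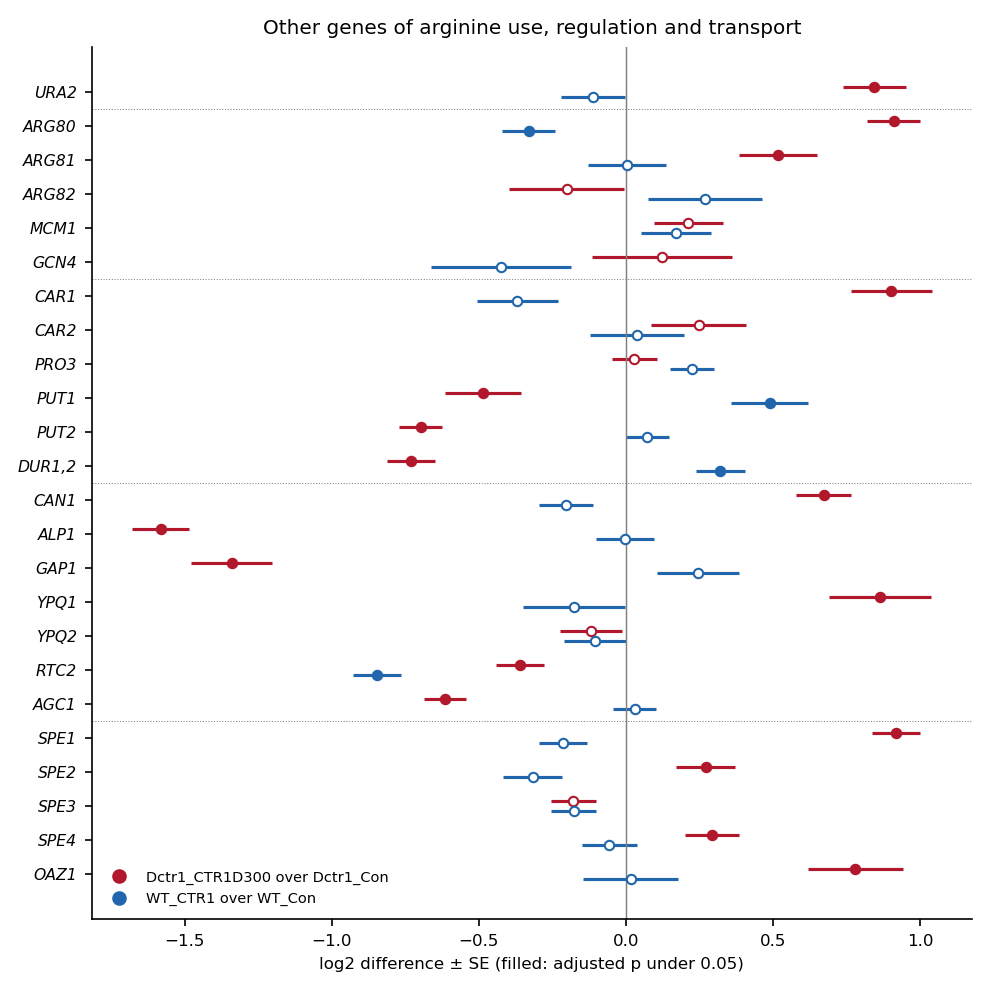
Log2 difference ± SE (x axis) of the 24 other pathway genes (y axis, grouped by role with dotted lines between carbamoyl phosphate, regulators, breakdown, transport and polyamines) in Dctr1_CTR1D300 over Dctr1_Con (red) and WT_CTR1 over WT_Con (blue). Filled circles passed an adjusted p of 0.05. ALP1 and GAP1 lie far left in red only, and RTC2 lies farthest left in blue.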

How the data were processed

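The arrays were scanned by the authors, and per the file headers Agilent Feature Extraction 10.7.1.1 gave for each spot a processed signal, a background-subtracted intensity not scaled between arrays, with the raw median signal and background intensity. The deposited flags (other values, 0 or 1) record outlier spots, saturation and whether a spot stood well above background. The authors' series matrix holds deposited log2 values of 5191 gene probes, used as an alternative.

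Each array's log2 processed signals were scaled by subtracting their 75th percentile, and both spots of a probe were averaged. A probe had to stand well above background on 3 or more arrays (6155 of 6256 did), and with the brightest probe of each gene this gave 6127 genes, 5699 of them named through RefSeq, assembly R64. Group means were fitted to all 12 arrays with no block and 8 residual degrees of freedom in limma (version 3.58.1, R version 4.3.3), after the procedure was tested on simulated data. The 9 genes and the lists around them, and the 5 genes most like them by Pearson correlation, follow rules set with earlier results of these data known. Genes named in the text are these lists, with CTR1 and LEU2 as checks of the labels, and 1 gene of a list is not reported here. The labels give 3 independent experiments per group, whose number limits the precision.

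The replicate numbers were checked for pairing by correlating the deviations of same-numbered arrays from their group means across genes. The coefficient was 0.679, 0.699 and 0.394 for Dctr1_CTR1D300 with Dctr1_Con, 0.750, 0.692 and 0.342 for WT_CTR1 with WT_Con, and 0.554, 0.295 and 0.134 for Dctr1_Con with WT_Con. It was 0.381, 0.407 and -0.03 for Dctr1_CTR1D300 with WT_CTR1. No comparison was paired in the main fit, and the replicate block, an alternative, was fitted to all groups at once. Replicate 1 of every group lay on slide 1, replicates 2 and 3 of wild type on slide 2 and those of the deletion strain on slide 3. Alternatives were quantile normalisation, median centring, normexp on the median signal with an offset of 50, the series matrix, no filter, either spot alone, the replicate or slide as a block, no slide 1, only the groups compared, and leaving out each array; their use on the genes around the pathway was added after seeing the data. No coordinates or sequences are given, since the array design names another assembly than the gene table.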

Additional observations from a re-analysis of the deposited data

Results flagged for a closer look

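The construct effects differed, by a test of the difference itself (limma's interaction term, adjusted over 6127 genes), in 7 of the 9 arginine and ornithine genes. The log2 effect of the truncated construct in the deletion strain minus that of full-length CTR1 in wild type was 2.639 for ARG7, 2.412 for ORT1, 2.025 for ARG1, 1.976 for ARG4, 1.847 for ARG2, 1.799 for ARG5,6 and 0.7634 for CPA1. In CPA1 the estimates of both effects were positive, whereas in the other 6 the estimate was positive in the deletion strain and negative in wild type, where that of ARG5,6 was not called (adjusted p = 0.162). Over all tested genes the median of this difference was -0.08. Strain and construct differ together in it, and no explanation was tested.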

How the results depend on the processing

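Over all alternatives run, 8 to 9 of the 9 genes were called higher in Dctr1_CTR1D300 over Dctr1_Con, 8 to 9 in Dctr1_CTR1D300 over WT_CTR1 and 6 to 7 in the difference between the construct effects, and the count stayed at 0 for Dctr1_Con over WT_Con. In WT_CTR1 over WT_Con, 1 gene (CPA1) was called higher with the lower-numbered spot alone or with slide as a fixed block (adjusted p = 0.0490), and 3 were called lower with the higher-numbered spot alone. Leaving out single arrays there gave 0 to 2 higher, 2 without replicate 2 of WT_CTR1 (ARG3 and CPA1), and 4 to 5 lower. ARG1 lost its call in that comparison without slide 1 (adjusted p = 0.109) and with only the groups compared (adjusted p = 0.0797), and ARG8 lost its call in Dctr1_CTR1D300 over WT_CTR1 with slide as a fixed block (adjusted p = 0.0558). ARG4 in WT_CTR1 over WT_Con was 0.039 with the higher-numbered spot.

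Signs turned among the uncalled estimates of Dctr1_Con over WT_Con. ARG7 was 0.025 with the higher-numbered spot and 0.093 with the slide block. Without slide 1, ARG1 was -0.13, ARG3 -0.030, ARG5,6 -0.15, ARG7 0.018 and CPA1 -0.084. Leaving out single arrays gave -0.056 to 0.13 for ARG1, -0.059 to 0.15 for ARG5,6 and -0.022 to 0.029 for ARG7. The cause of these changes was not tested.

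The replicate block changed no call among the 9 genes in any comparison. It moved the calls over all genes to 1699, against 859 without the block, in WT_CTR1 over WT_Con, and to 95, against 30, in Dctr1_Con over WT_Con. WT_CTR1 over WT_Con had 1362 calls with the lower-numbered spot, 1345 with the slide block, 360 without slide 1 and at least 491 without a single array, and the deletion comparison at least 18 without a single array. Of the genes called in WT_CTR1 over WT_Con, 58.4% were higher, against 47.0% with median centring, and in Dctr1_Con over WT_Con 66.7%, against 77.4% with quantile normalisation.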
